A study of Homo sapiens with 2 samples.

Results

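Of the 84 genes on a prostate cancer qPCR panel, 7 that code for proteins of caveolae, cell junctions and the actin cytoskeleton were followed in control and BMI1-silenced LNCaP cells. They were chosen by name from the annotation of the deposited tables, with earlier results of these data known, and are CAV1, CAV2, CDH1, PDLIM4, ZNF185, TGFB1I1 and DLC1. LNCaP is an established human prostate cancer cell line, and BMI1 is a Polycomb protein that helps to keep genes repressed. There were 2 samples, 1 of control LNCaP cells and 1 of BMI1-silenced LNCaP cells, and each held equal amounts of RNA pooled within its group. The labels name siRNA as the silencing agent, whereas the methods describe a plasmid for a short hairpin RNA and state that transient transfection did not reach every LNCaP cell. The 5 reference genes on the plate were ACTB, B2M, GAPDH, HPRT1 and RPLP0.

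Caveolin-1 and caveolin-2 are the coat proteins of caveolae, small flask-shaped pits of the plasma membrane, and caveolin-2 depends on caveolin-1 to reach the cell surface. E-cadherin, the product of CDH1, joins epithelial cells to each other through the actin-linked adherens junction. PDLIM4, ZNF185 and TGFB1I1 (also called Hic-5 or ARA55) carry LIM domains, zinc-binding modules through which proteins attach to actin fibres and focal adhesions, and TGFB1I1 is also a coactivator of the androgen receptor. DLC1 is a GTPase-activating protein that regulates the actin cytoskeleton. Several of these genes are known to be silenced by promoter methylation in prostate tumours.

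Relative to the reference genes, ZNF185 and CDH1 were at least 2-fold lower in BMI1-silenced than in control cells, and PDLIM4 and TGFB1I1 were at least 2-fold higher. CAV1, CAV2 and DLC1 were within 2-fold. The fold changes ran from at least 351-fold lower for ZNF185 to 4.20-fold higher for PDLIM4. These are differences between 2 samples with no replicate, so no gene was tested and how far cultures vary is not known. Over the whole panel, 19.3% of the 83 genes with a value were at least 2-fold lower, 34.9% were at least 2-fold higher and 54.2% passed 2-fold in either direction. The counts of 2 lower and 2 higher among 7 genes are therefore not far from those shares.

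A well is read as its threshold cycle (Ct), the PCR cycle at which fluorescence crosses a set level, and each cycle less means up to 2 times the template. The deposited normalized value is 2 raised to the power of minus Delta Ct, and is higher where there is more RNA. It had been formed against 1 reference Ct per sample, 27.65 for control and 27.37 for BMI1-silenced cells, with every Ct above 32 set to 32. The raw Ct table goes with the opposite samples. With its columns exchanged and the ceiling applied, 7 of the 7 genes matched the normalized values, and with the columns as named 0 of the 7 did. The groups given here follow the normalized table. The header of a separate deposited table of fold changes names the test over the control sample. That header does not show whether the normalized or the raw table has its columns right. If the raw columns are right as named, the direction of each of the 7 genes turns around. BMI1 itself was not on the panel. CDKN2A, which BMI1 is known to repress, read 5.71 for the control and 346.2 for the silenced sample of the normalized table. Its raw Ct was 20.93 under the control name and 25.13 under the BMI1-silenced name, so the raw table as named has more template in the control. Even with the columns exchanged, the BMI1-silenced value of CDKN2A differs between the tables.

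Repeat wells of the positive PCR control had a raw Ct with an SD of 0.359 and 0.482 cycles (n = 3 wells in each sample), which describes wells and not cultures. The genomic DNA well crossed its threshold at 41.95 and 44.57 cycles, later than any gene on the panel. As deposited, the 5 reference genes were themselves lower in BMI1-silenced cells, by a mean log2 value of -1.68 with an SD across genes of 0.47. That mean was subtracted from each gene's log2 change below, and the SD is used as a yardstick for a change.

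The prostate lineage was checked with the luminal markers KLK3 and TMPRSS2. KLK3, which codes for prostate-specific antigen and is a hallmark of LNCaP cells, was at the ceiling in control cells (normalized value 0.0489) and had a value of 0.197 in BMI1-silenced cells. The raw table holds 29.71 and 34.17 cycles for it in the columns named for control and BMI1-silenced cells. TMPRSS2, a serine protease of the luminal prostate, had normalized values of 0.713 (control) and 0.653 (BMI1-silenced). Relative to the reference genes the log2 fold change was at least 3.69 for KLK3 and 1.55 for TMPRSS2. The 6 stromal or mesenchymal genes on the panel, TIMP2, TIMP3, IGF1, IGFBP5, LOXL1 and DKK3, summed to 73.6 in control and 57.3 in BMI1-silenced cells, with 2 lower, 2 higher and 0 at the ceiling. TIMP3 made up 40.9 of the BMI1-silenced sum, and for TIMP3 the raw table holds different Ct values even with the columns exchanged. The part of these differences in the results was not tested. In a bulk sample, fewer cells of a type and less RNA per cell cannot be told apart.

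For CAV1 (NM_001753) the normalized value was 152.9 in control LNCaP cells against 27.0 in the BMI1-silenced sample. These values correspond to a Ct of 20.39 and 22.61. The control value was the third highest of the 84 genes and the BMI1-silenced value the fifth highest, so the CAV1 assay crossed its threshold early in both samples. LNCaP cells are commonly described as having little or no caveolin-1. The CAV1 readings of both samples thus differ from the usual description of the line. So does the KLK3 reading at the ceiling in control cells, and that of BMI1-silenced cells was only 0.197. GSTP1, a gene known for promoter methylation in prostate cancer, read 118.6 in control and 32.8 in BMI1-silenced cells. Whether the samples are typical of the line was not tested. Against the reference genes CAV1 had a log2 fold change of -0.82, 1.76-fold lower in BMI1-silenced cells, which is 1.76 times the reference SD. It ranked 17 of 83 from the lowest change. Each of the 5 reference genes taken alone gave a log2 value below 0, from -1.53 with GAPDH to -0.29 with HPRT1, and 1 of the 5 put CAV1 past 2-fold.

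The CAV2 (NM_001233) normalized values were 18.9 (control) and 5.28 (BMI1-silenced), at a Ct of 23.41 and 24.97. Relative to the reference genes the log2 fold change was -0.16, or 1.12-fold lower, well inside the reference SD. The sign depended on the reference, with 2 of the 5 reference genes giving a value below 0 and 3 a value above 0. CAV1 and CAV2 lie next to each other on chromosome 7, with 0 protein-coding genes between them in RefSeq. The ratio of the CAV1 to the CAV2 normalized value, into which no reference gene enters, was 8.10 in control and 5.12 in BMI1-silenced cells. The log2 changes of the pair thus differed by 0.66, which is less than 2-fold.

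CDH1 (NM_004360) went from a normalized value of 6.35 in the control sample to 0.632 in the BMI1-silenced sample. The Ct was 24.98 in control and 28.03 in BMI1-silenced cells, so both samples lay well under the ceiling. Scaled to the reference genes the log2 change of CDH1 was -1.65 (3.14-fold lower), which is 3.54 times the reference SD. CDH1 ranked 11 of 83 from the lowest change. All 5 reference genes taken alone put it at least 2-fold lower, from -2.36 with GAPDH to -1.12 with HPRT1. Its change was lower than that of CAV1 by 0.83 on the log2 scale and lower than that of DLC1 by 1.49.

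**Figure D1:**
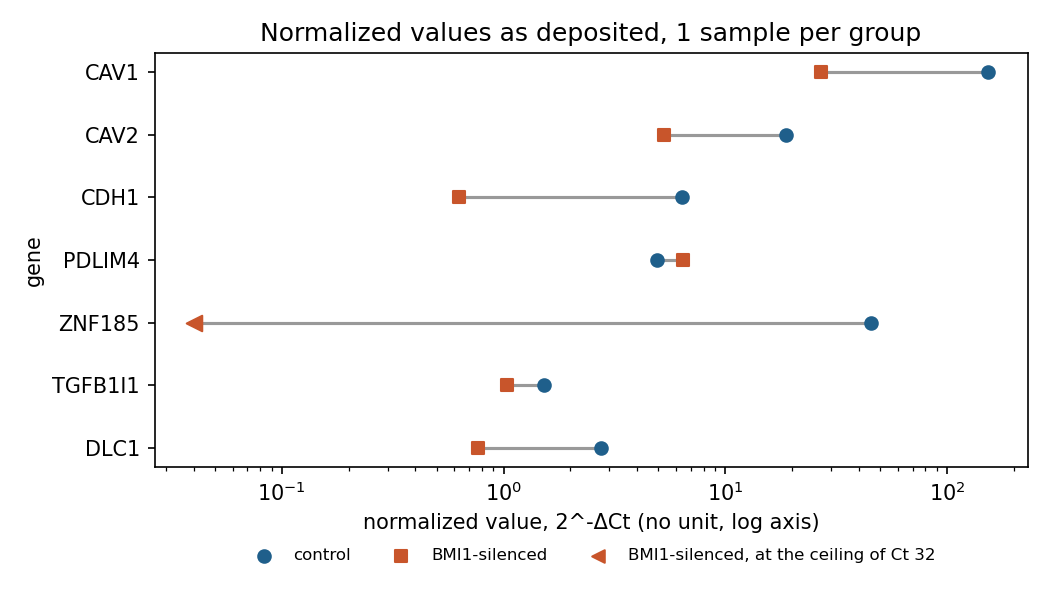
Deposited normalized values (2^-ΔCt, log axis) of the 7 genes in control (circles) and BMI1-silenced (squares) LNCaP cells, 1 sample per group, joined by a line per gene. The control value is the higher one for 6 of the 7 genes, PDLIM4 is the exception, and the triangle marks ZNF185 at the ceiling of Ct 32 in BMI1-silenced cells.

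The LIM domain genes lay furthest apart. ZNF185 (NM_007150) had a normalized value of 45.3 in control cells and stood at the ceiling in BMI1-silenced cells, where its value of 0.0403 is an upper limit. The Ct was 22.15 in control cells, and the raw table holds a Ct of 33.07 for the other sample, 1.07 cycles past the ceiling. At the ceiling the log2 fold change was at most -8.46, that is, at least 351-fold lower in BMI1-silenced cells. With the raw Ct and no ceiling it was -9.53, or 739-fold lower. ZNF185 was the lowest of the 83 genes by change and the 1 panel gene at the ceiling in BMI1-silenced cells alone.

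PDLIM4 (NM_003687) read 4.91 as a normalized value in the control and 6.44 in the silenced sample, and was alone among the 7 genes in having the higher deposited value in BMI1-silenced cells. The Ct was 25.35 in control and 24.68 in BMI1-silenced cells. Relative to the reference genes the log2 fold change was 2.07, or 4.20-fold higher, which is 4.44 times the reference SD. It ranked 16 of 83 from the highest change. All 5 reference genes taken alone put it at least 2-fold higher, from 1.36 with GAPDH to 2.60 with HPRT1. As deposited, without that scaling, the log2 value was 0.39, within 2-fold.

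TGFB1I1 (NM_015927) was at a normalized value of 1.52 (control) and 1.04 (BMI1-silenced), at a Ct of 27.05 and 27.32. The log2 fold change was 1.13 relative to the reference genes, or 2.19-fold higher, but -0.55 as deposited, so its direction rests on the scaling. With single reference genes it ran from 0.42 with GAPDH to 1.66 with HPRT1, and 3 of the 5 put it past 2-fold. The control sample had the higher normalized value, but by less than the mean of the reference genes. It ranked 27 of 83 from the highest change.

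DLC1 (NM_006094) showed normalized values of 2.75 (control) and 0.769 (BMI1-silenced), at a Ct of 26.19 and 27.74. Its log2 fold change was -0.16 relative to the reference genes, 1.12-fold lower and inside the reference SD. The changes of DLC1 and CAV2 differed by 0.003 on the log2 scale, and as with CAV2 3 of the 5 single reference genes gave a value above 0.

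**Figure D2:**
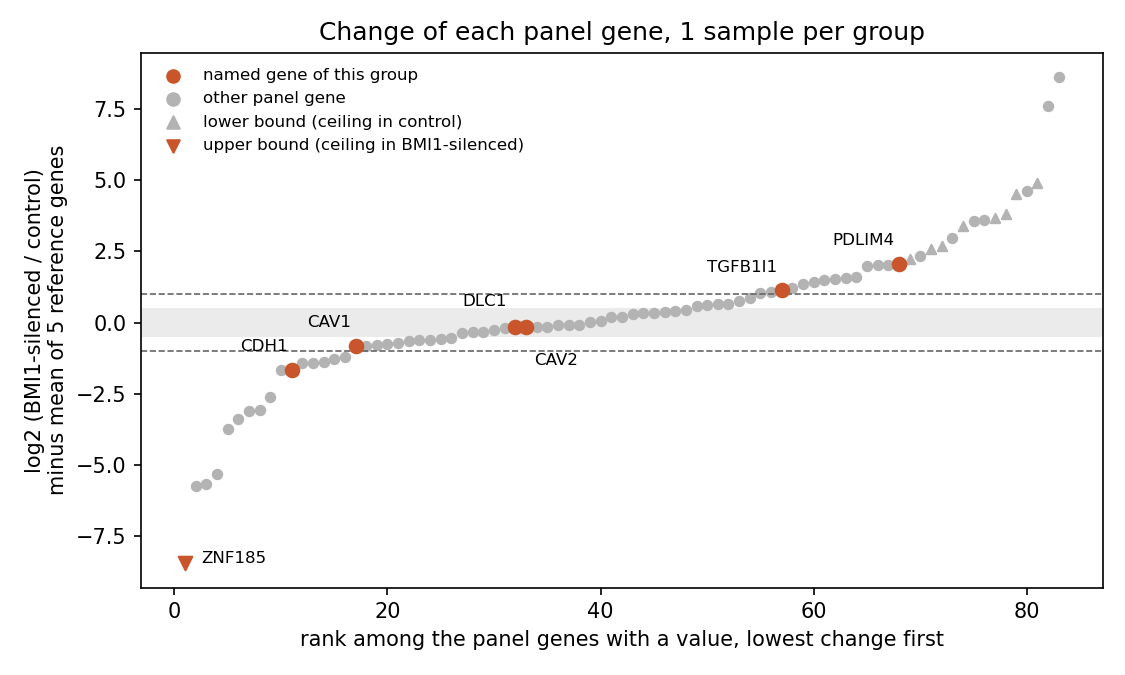
Log2 fold change of BMI1-silenced over control cells, minus the mean of the 5 reference genes, for the 83 panel genes with a value, ranked from the lowest; the 7 genes described are in orange, triangles are bounds, dashed lines mark 2-fold and the grey band is 1 reference SD (0.47) on each side of 0. ZNF185 is at the lowest rank, CDH1 at rank 11, CAV1 at 17, DLC1 and CAV2 inside the band, and TGFB1I1 and PDLIM4 above the upper line.

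The order of the 7 genes does not depend on the choice of reference, since a reference moves every gene by one amount. From the lowest to the highest change it was ZNF185, CDH1, CAV1, DLC1, CAV2, TGFB1I1 and PDLIM4. Of the 21 pairs that the 7 genes form, 16 differed by at least 2-fold in their change, 6 of them pairs with ZNF185 that are bounds. The share over all pairs of panel genes was not computed, so this count does not set the 7 genes apart from the panel. PDLIM4 against CDH1 gave the widest difference outside ZNF185, 3.72 on the log2 scale. In control cells the normalized value of PDLIM4 was 0.774 times that of CDH1 and in BMI1-silenced cells 10.2 times. The efficiency of the single assays is not given in the sources used here, so these ratios compare the samples and not the number of molecules of the genes.

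**Figure D3:**
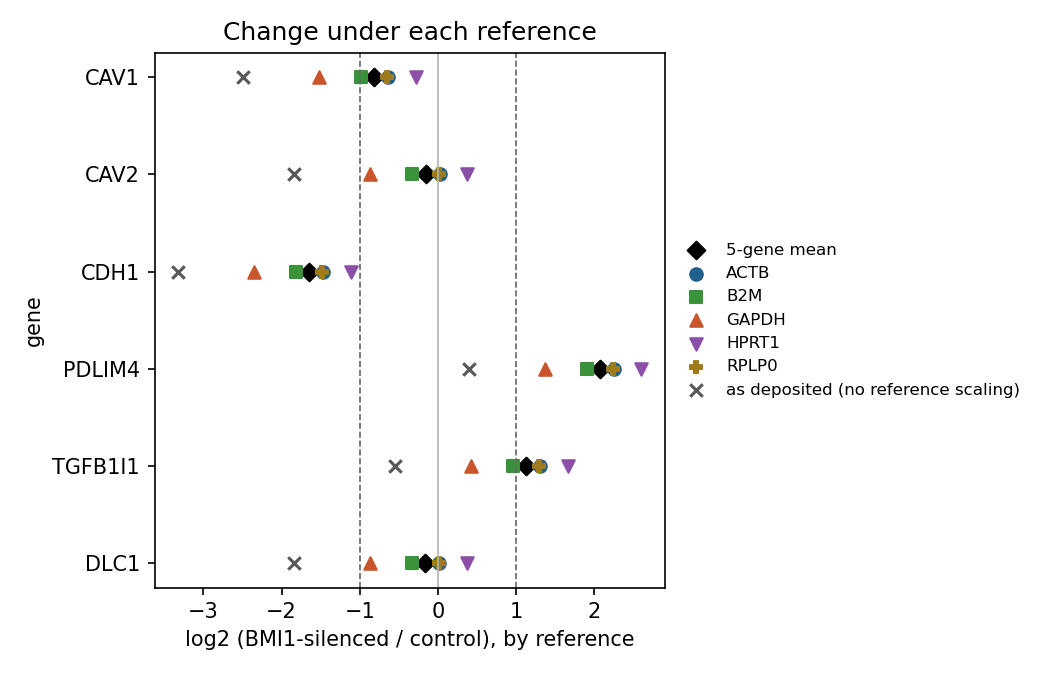
Log2 fold change of the 6 genes measured under the ceiling in both samples with each reference gene alone, with the mean of all 5 and as deposited with no reference scaling; dashed lines mark 2-fold. CDH1 stays below the lower line under each choice, PDLIM4 is above the upper line under each reference but not as deposited, and CAV2 and DLC1 lie on both sides of 0.

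Taken as deposited, 5 of the 7 genes were at least 2-fold lower, 0 were higher, and PDLIM4 and TGFB1I1 were within 2-fold. In that scale 62.7% of the panel was at least 2-fold lower and 14.5% higher. The deposited log2 values were -2.50 for CAV1, -1.84 for CAV2, -3.33 for CDH1 and -1.84 for DLC1.

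Polycomb complexes are known to sit at promoters rich in CpG, the dinucleotide at which DNA is methylated. The RefSeq promoter table (GRCh38.p14) held windows for 5 of the 7 genes, CAV1, CAV2, PDLIM4, ZNF185 and TGFB1I1, with 13 windows in all because a gene can have several starts. The 250 bases before the first listed start are shown for the 3 LIM domain genes, since these had the widest spread of changes, 5′ to 3′ on the plus strand with each CpG in capitals. The positions are chr5:132257446-132257695 for PDLIM4, chr16:31471902-31472151 for TGFB1I1 and chrX:152914182-152914431 for ZNF185.
PDLIM4: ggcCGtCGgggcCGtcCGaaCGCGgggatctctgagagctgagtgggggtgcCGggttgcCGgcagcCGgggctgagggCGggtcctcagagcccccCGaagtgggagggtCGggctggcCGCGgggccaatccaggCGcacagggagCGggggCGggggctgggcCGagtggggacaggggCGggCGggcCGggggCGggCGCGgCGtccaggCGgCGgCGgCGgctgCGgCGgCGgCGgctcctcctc
TGFB1I1: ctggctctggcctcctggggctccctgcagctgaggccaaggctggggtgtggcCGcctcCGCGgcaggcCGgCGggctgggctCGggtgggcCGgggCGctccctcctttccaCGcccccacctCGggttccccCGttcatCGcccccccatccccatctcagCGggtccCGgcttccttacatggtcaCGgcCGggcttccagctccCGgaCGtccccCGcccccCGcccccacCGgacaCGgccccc
ZNF185: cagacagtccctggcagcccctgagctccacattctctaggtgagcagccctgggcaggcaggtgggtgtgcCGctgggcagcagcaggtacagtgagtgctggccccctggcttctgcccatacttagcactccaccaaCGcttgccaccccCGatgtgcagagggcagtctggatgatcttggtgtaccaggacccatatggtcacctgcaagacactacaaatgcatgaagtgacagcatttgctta
The PDLIM4 window holds 33 CpG and that of TGFB1I1 holds 22, more than 91.9% and 72.0% of the 35116 windows of the table. The ZNF185 window holds 3 CpG, where 22.9% of all windows hold fewer, and the median window holds 11. Among the other ZNF185 starts, the window at chrX:152941421-152941670 holds 29. For the caveolins, the first listed window holds 18 CpG in CAV1 and 35 in CAV2, more than 63.2% and 94.2% of all windows. CAV2, with a log2 fold change of -0.16, thus had the most CpG among the first listed windows of the 5 genes. Which start the assayed ZNF185 transcript uses was not examined. The letters CACCTG, a binding motif of the SNAI repressors known for their action on CDH1, were searched on both strands, where the reverse reads CAGGTG. They occur 2 times in the ZNF185 window shown and 0 times in the first listed windows of the other 4 genes, and 17.5% of all windows hold a match. The motif holds no CpG and so does not overlap the letters in capitals. These are features of the reference sequence, and no methylation or binding was measured here.

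Of the 7 genes, 5 (CAV1, CDH1, DLC1, PDLIM4 and ZNF185) belong to a list of 24 genes known for promoter methylation in prostate cancer, 23 of them on the panel. Relative to the reference genes the 23 had 2 lower, 11 higher and 10 within 2-fold, beside 19.3% lower and 34.9% higher over the panel. The lower ones were CDH1 and ZNF185. The other 18 genes of the list had 0 lower, 10 higher and 8 within 2-fold, beside the same panel shares. Of the 18, 3 (EDNRB, SFRP1 and SLC5A8) were at the ceiling in control cells, so that their changes are lower bounds. The median log2 change of these 18 was 1.53, against 0.20 for the panel and -0.16 for the 7 genes. As deposited these medians were -0.145, -1.48 and -1.84, so the sign of the first rests on the scaling. The median of the 18 was 0.83 with GAPDH alone as the reference, and 0.84 when genes whose Ct never fell under 30 were left out. Among them GPX3 (glutathione peroxidase) stood at 3.56, TNFRSF10D (a decoy receptor of TRAIL) at 3.60 and RASSF1 (a Ras-association tumour suppressor) at 2.01, whereas GSTP1 (glutathione S-transferase) stood at -0.17 and PTGS2 (cyclooxygenase-2) at -0.78. CDKN2A and TIMP3, the highest of the 18, went with other Ct values in the raw table.

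A list made for the cytoskeleton held 5 other panel genes, ECT2, SEPTIN7, CAMSAP1, KLHL13 and PES1, of which PES1 is known for ribosome assembly and not as a regulator of the cytoskeleton. ECT2, a guanine nucleotide exchange factor needed for cytokinesis, was at a normalized value of 22.4 (control) and 2.90 (BMI1-silenced), with a log2 fold change of -1.27. SEPTIN7, a filament-forming GTPase, stood at -0.57 and CAMSAP1, which binds microtubule ends, at -0.38. KLHL13, an adaptor for ubiquitination in mitosis, stood at 0.42, and PES1 at -0.61. Of the 5, 1 was at least 2-fold lower and 0 were higher, beside 19.3% lower and 34.9% higher over the panel. The median was -0.57, against 0.20 for the panel. It was -2.25 as deposited, -1.27 with GAPDH alone and -0.036 with HPRT1 alone. The panel medians were then -1.48, -0.505 and 0.73.

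TGFB1I1 works with the androgen receptor as a coactivator. Of other cofactors on the panel, DAXX, a corepressor, had a log2 value of 1.52 for BMI1-silenced against control cells and NRIP1, another corepressor, 0.35, so that TGFB1I1, at 1.13, lay between them.

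Receptors, growth factors and matrix genes, several of which signal through caveolae, gave 3 lower, 2 higher and 4 within 2-fold of 9. Over the panel 19.3% were lower and 34.9% higher. EGFR, the epidermal growth factor receptor, stood at -1.39, IGF1 at -1.43 and IGFBP5 at -2.62. LOXL1 (0.19), TFPI2 (0.66), TIMP2 (-0.32) and VEGFA (0.33) were within 2-fold, although VEGFA went with another Ct in the raw table, as did TIMP3, one of the higher genes. The other higher gene, EDNRB, was at the ceiling in control cells, so its log2 value of 2.69 is a lower bound. The median was 0.19, against 0.20 for the panel. It was -1.49 as deposited and -0.52 with GAPDH alone, against -1.48 and -0.505 for the panel.

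**Figure D4:**
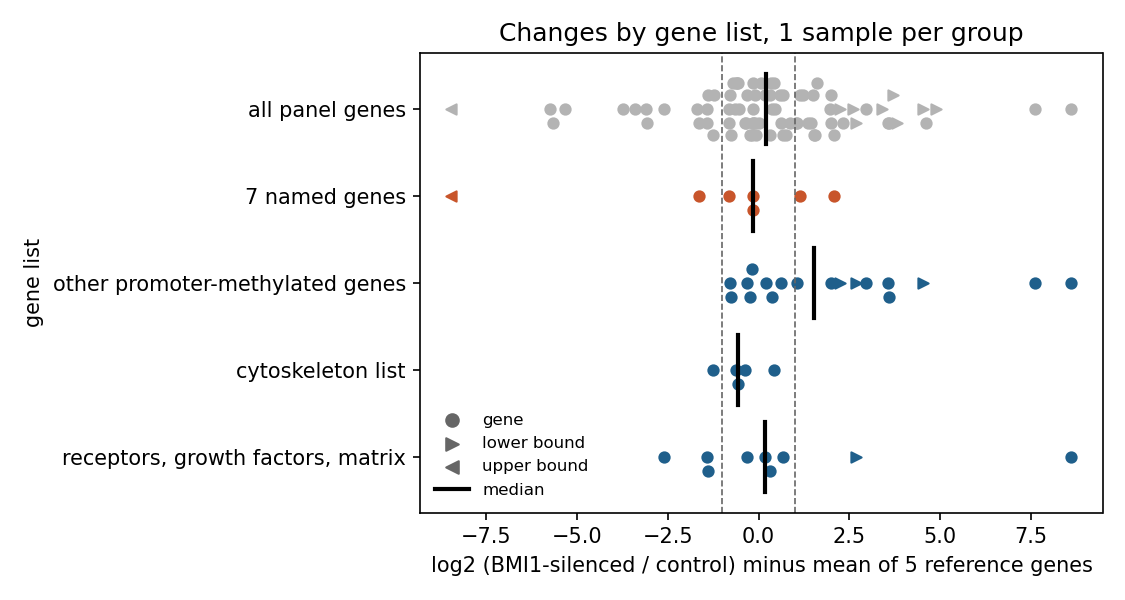
Log2 fold change of BMI1-silenced over control cells, minus the mean of the 5 reference genes, for all panel genes and for each list, 1 point per gene (points that would overlap are offset vertically); triangles are bounds, black bars are medians and dashed lines mark 2-fold. The 7 genes are spread around a median of -0.16, while the other promoter-methylated genes have a median of 1.53 (-0.145 as deposited, with no reference scaling). They have 0 genes below the lower line, beside 19.3% of the panel.

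For each of the 7 genes, the panel gene under the ceiling in both samples with the most similar log2 normalized values was found, by distance over the 2 samples. DLC1 was closest to MTO1, which modifies mitochondrial tRNA, at a distance of 0.042, and TGFB1I1 to MSX1, a homeobox gene, at 0.18. CAV2 was closest to NDRG3 (0.33), CDH1 to IGF1 (0.44), PDLIM4 to SOX4 (0.45) and CAV1 to GSTP1 (0.46). ZNF185 had no near neighbour, with USP5, a ubiquitin peptidase, the closest at 2.36. With 2 samples, likeness of this kind describes a pair of values only.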

How the data were processed

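Control and BMI1-silenced LNCaP cells gave 1 pooled RNA sample each, measured on a SYBR Green qPCR array, with reverse transcription from 1 microgram of total RNA and 45 cycles. The authors used the vendor's array software, and its threshold, ceiling and reference genes are not given in the sources used here. The raw table the authors deposited holds a Ct per well, a score in cycles. The normalized table the authors deposited holds 2^-Delta Ct, a ratio of each gene to a reference. A deposited table of the authors' own fold changes was not used beyond its header. All columns of sample values were otherwise used.

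The log2 ratio of the normalized values, BMI1-silenced over control, was taken per gene, minus its mean over ACTB, B2M, GAPDH, HPRT1 and RPLP0. A gene at the ceiling of Ct 32 in 1 sample gave a bound. The 1 gene with no value under it was dropped, leaving 83 of 84. Wells were called matching between tables within 0.001 cycles. Genes were counted at 2-fold. With 1 sample per group no test was made. Symbols came from RefSeq transcript accessions (GRCh38.p14, 88 of 89 matched, and Cyclin A1 kept its description). The members and lists were chosen with earlier results of these data known. Named are the 7 genes, the reference genes, genes of the fixed lists and the nearest panel gene of each. Values of some other panel genes are not reported here. Simulated Ct values served to test the arithmetic. Python 3.11.15 and matplotlib 3.10.9 were used.

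Alternatives were each reference gene alone, the panel median, no reference scaling, raw Ct with the columns as named or exchanged at a ceiling of 32, of 35 or none, genes with a Ct under 30, and thresholds of 4-fold and 1.5-fold.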

Additional observations from a re-analysis of the deposited data

How the results depend on the processing

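Each reference gene taken alone moves every value by one amount, so it changes the counts and medians but not the order of the genes. A count was held to a limit of 1.5 times and a log2 value to the reference SD, 0.47. With the panel median, RPLP0, B2M or ACTB the log2 changes of the 7 genes stayed within that limit, although CAV2 and DLC1 passed 0 with ACTB and RPLP0, and with B2M 1 of the 7 was at least 2-fold higher. With GAPDH 1 of the 7 was higher, and 29 panel genes were lower and 19 higher. The medians were then -0.87 for the 7 genes, -0.505 for the panel, -0.085 for the promoter-methylated list, 0.83 for that list without the 7 genes, -1.27 for the cytoskeleton list and -0.52 for receptors and matrix. With HPRT1 these were 0.37, 0.73, 1.15, 2.07, -0.036 and 0.72. As deposited, 5 of the 7 were lower and 0 higher, on the panel 52 were lower and 12 higher, with medians of -1.84, -1.48, -1.06, -0.145, -2.25 and -1.49. TGFB1I1 was then at -0.55.

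Using the raw table under its own column names reversed the 4 genes past 2-fold, to 1.65 for CDH1, -2.07 for PDLIM4, -1.13 for TGFB1I1 and 8.46 for ZNF185 at a ceiling of 32, or 9.53 for ZNF185 at a ceiling of 35 and with none. The counts of 2 lower and 2 higher stayed, with the genes exchanged. In that setting on the panel 31 were lower and 16 higher, with medians of -1.06 for the promoter-methylated list, -2.13 (ceiling of 32) or -2.49 (35 and none) without the 7 genes and 0.57 for the cytoskeleton list. The cause is the choice of control column. With the columns exchanged, 7 of the 7 genes kept their value at a ceiling of 32, ZNF185 was lower by more at the others, and the promoter-methylated list without the 7 genes had a median of 2.13 (ceiling of 32) or 2.49, since several of its genes went with other Ct values in the raw table. With genes under Ct 30 in at least 1 sample that median was 0.84. At a 4-fold threshold 1 of the 7 was lower and 1 higher, and 9 panel genes were lower and 18 higher. At 1.5-fold these counts stayed within the limit. No paired analysis was possible because there was a single sample on each side.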
